A study of Mus musculus with 6 samples.

Results

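Caspases are proteases that dismantle the cell in apoptosis, and inhibitor of apoptosis (IAP) proteins restrain them. The genes described here are 4 caspase genes, Casp2, Casp6, Casp8 and Casp9, 3 IAP genes, Xiap, Birc2 and Birc3, and Diablo, which encodes a protein that displaces IAP proteins from caspases. They were taken by name, with Ensembl identifiers matched to mouse symbols, and all 8 were found among the 25006 genes counted in heart ventricle of mouse embryos. The 3 null-labelled libraries came from embryos of genotype VecadcreERT2; Prox1f/f, in which Cre fused to a tamoxifen-responsive receptor is driven by the VE-cadherin promoter, active in endothelial cells, to recombine floxed Prox1. The 3 control libraries carry the genotype label WT, although the breeding described in the labels pairs Prox1 f/f females with VecadCreERT2; Prox1f/f males. Every group shares the NMRI background, the stage of embryonic day 17.5 and dams injected with tamoxifen (5 mg for each 40 g) at E13.5 and E14.5. The series looked for genes regulated by lymphatic vessels of the developing heart.

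In the death receptor route, ligands such as FasL and TRAIL gather the adaptor FADD and caspase-8 at the cell surface. In the mitochondrial route, cytochrome c released from mitochondria drives APAF1 to assemble the apoptosome, which activates caspase-9. Both routes converge on executioner caspases, XIAP binds and blocks caspase-9 and the executioners, and cIAP1 and cIAP2, the products of Birc2 and Birc3, act mainly as ubiquitin ligases in receptor and NF-kB signalling. These proteins are regulated to a large part after translation, by cleavage and binding, which RNA counts do not measure.

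Birc2 and Birc3 lie side by side on the minus strand of mouse chromosome 9, at 7818227 to 7837064 and 7848699 to 7873186 (GRCm38), with 11.6 kb between them. Their promoters are shown because these neighbours differ in level, and the promoter of Xaf1 because that gene, which encodes a binding partner of XIAP, was among the pathway genes that changed. This choice was made after their values were seen. Each runs from 250 bases before to 50 after a RefSeq start site (RefSeq, GRCm38.p6), 5′ to 3′ on the gene's strand, with CpG dinucleotides in capitals. The positions are chr9:7837008-7837307 for Birc2, chr9:7873121-7873420 for Birc3, both on the minus strand, and chr11:72301379-72301678 on the plus strand for Xaf1.
Birc2: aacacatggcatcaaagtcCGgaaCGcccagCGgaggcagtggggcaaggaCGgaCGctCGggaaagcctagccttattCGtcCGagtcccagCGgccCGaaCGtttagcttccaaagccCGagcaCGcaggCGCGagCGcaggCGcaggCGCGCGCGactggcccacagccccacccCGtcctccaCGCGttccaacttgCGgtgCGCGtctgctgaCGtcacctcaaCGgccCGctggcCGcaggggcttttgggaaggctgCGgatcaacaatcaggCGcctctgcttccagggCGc
Birc3: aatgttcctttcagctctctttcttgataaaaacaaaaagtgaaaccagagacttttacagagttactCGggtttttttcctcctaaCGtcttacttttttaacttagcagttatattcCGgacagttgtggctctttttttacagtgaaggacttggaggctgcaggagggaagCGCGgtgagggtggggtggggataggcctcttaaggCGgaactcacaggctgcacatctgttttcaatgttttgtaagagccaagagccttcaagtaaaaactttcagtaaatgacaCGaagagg
Xaf1: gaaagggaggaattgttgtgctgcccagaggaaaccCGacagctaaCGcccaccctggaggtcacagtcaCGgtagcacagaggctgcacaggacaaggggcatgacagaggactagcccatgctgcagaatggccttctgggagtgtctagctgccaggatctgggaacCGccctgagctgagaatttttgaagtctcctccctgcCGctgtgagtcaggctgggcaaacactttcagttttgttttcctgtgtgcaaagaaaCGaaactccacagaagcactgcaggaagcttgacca

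The Birc2 promoter shown, the first listed, held 34 CpG dinucleotides and a second, overlapping one 21, the Birc3 promoter 7 and the Xaf1 promoter 6, where the median of 32851 promoters of the same length was 7. Among the first-listed promoters of the other members, Diablo held 42, Casp9 28, Casp2 26, Xiap 20 (its others held 5 and 2), Casp6 16 and Casp8 5, and all 8 members were matched in the RefSeq table, with 11 promoters in all. The other pathway genes that changed, Tnfsf10 and Casp1, held 6 and 3. A cAMP response element spelled TGACGTCA, sought on both strands, was found once in the Birc2 promoter shown and in no other promoter of the members, and 1.79% of all promoters held it. An interferon response motif and a kB motif were sought in the same way, each as a fixed pattern. They had 0 matches in the promoters of the members and of Tnfsf10, Xaf1 and Casp1, against 3.44% and 0.411% of all promoters. The absence of a match says only that these exact patterns are not in these windows, and looser spellings were not sought. The promoters of Xaf1 and Casp8 both hold the stretch gaaaCGaaact, which the interferon pattern did not match. This stretch was not part of the search, and its share of all promoters was not counted. Near matches in the other promoters were not listed, so it cannot be called particular to these genes.

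Null-labelled libraries held 36216206 to 41408973 counts each, and controls 35195544 to 44330594. Cardiomyocyte markers were high in all 6, as labelled, with 63007 to 64672 CPM (counts scaled to library size after trimmed mean of M values normalisation) over 7 genes in null-labelled libraries and 61435 to 66523 CPM in controls. Prox1 was higher in null-labelled libraries (164 ± 3.91 against 147 ± 3.15 CPM, SD, n = 3 each, log2 fold change 0.15, adjusted p = 0.0331 by edgeR's quasi-likelihood test). This runs opposite to a loss of Prox1 transcript. The labels do not name the deleted exons, and the counts cover the whole gene. They also cover all cells of the ventricle, while the promoter that drives Cre is active in endothelial cells. The value therefore does not check the labels, and which cells the Prox1 counts came from was not tested. Esr1, the mouse gene of the estrogen receptor, a form of which the inducible Cre carries in part, was also counted. It had 298, 244 and 290 counts in null-labelled libraries and 14, 9 and 19 in controls. Whether these reads came from the Cre construct was not tested. Cre is named for the null group only, so Cre and Prox1 loss cannot be told apart. Null 2 and control 3 carried high Xist and few Y-linked counts, and null 1 and null 3 carried Y-linked counts together with some Xist (44.7 and 139 CPM, against 0.636 and 0.806 CPM in control 1 and control 2). By these counts each group held libraries of more than 1 embryo, but the labels do not say that all 3 libraries of a group came from separate embryos, so the p-values cover the spread among these samples.

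None of the 8 caspases and inhibitors passed the test for a difference between null-labelled and control ventricles. Of 14815 genes tested, 801 changed at an adjusted p under 0.05 (5.41%), and of the 8 members, all of which passed the filter on low counts, edgeR called 0. Over all genes 2.43% were called higher and 2.98% lower. DESeq2, which called 7.54% of its genes, and limma-voom, which called 5.35%, also called 0 members, and at an adjusted p under 0.1, where edgeR called 9.65% of genes, the count was still 0. At an unadjusted p under 0.05 edgeR counted 1 member, Casp8, where 20.5% of all genes passed, limma-voom 1 and DESeq2 0. The median log2 fold change of null over control was −0.02 over the members and 0.00 over all genes tested, with 3 members above 0 and 5 below. In size the members' median was 0.03, against 0.09 for all genes and 0.07 for the 8881 genes within the members' range of expression. The groups did not overlap for 2 members, Casp6 and Casp8, which is 25% of the members and 26.6% of all genes tested.

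The intervals bound the size of a change in each member. For Casp2, Casp9, Xiap, Birc2 and Diablo, the 95% intervals of the change in null-labelled ventricles lay between −8.65% and 11.1%. The interval ran from −14.7% to 11.1% for Birc3, from −18.6% to −0.328% for Casp8 and from −1.11% to 23.3% for Casp6. The standard error of the log2 fold change had a median of 0.05 over the members and 0.07 over all genes. An adjusted p above the threshold does not show that a gene was equal in both groups, and in whole ventricle fewer cells of a type and less RNA per cell cannot be told apart.

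**Figure D1:**
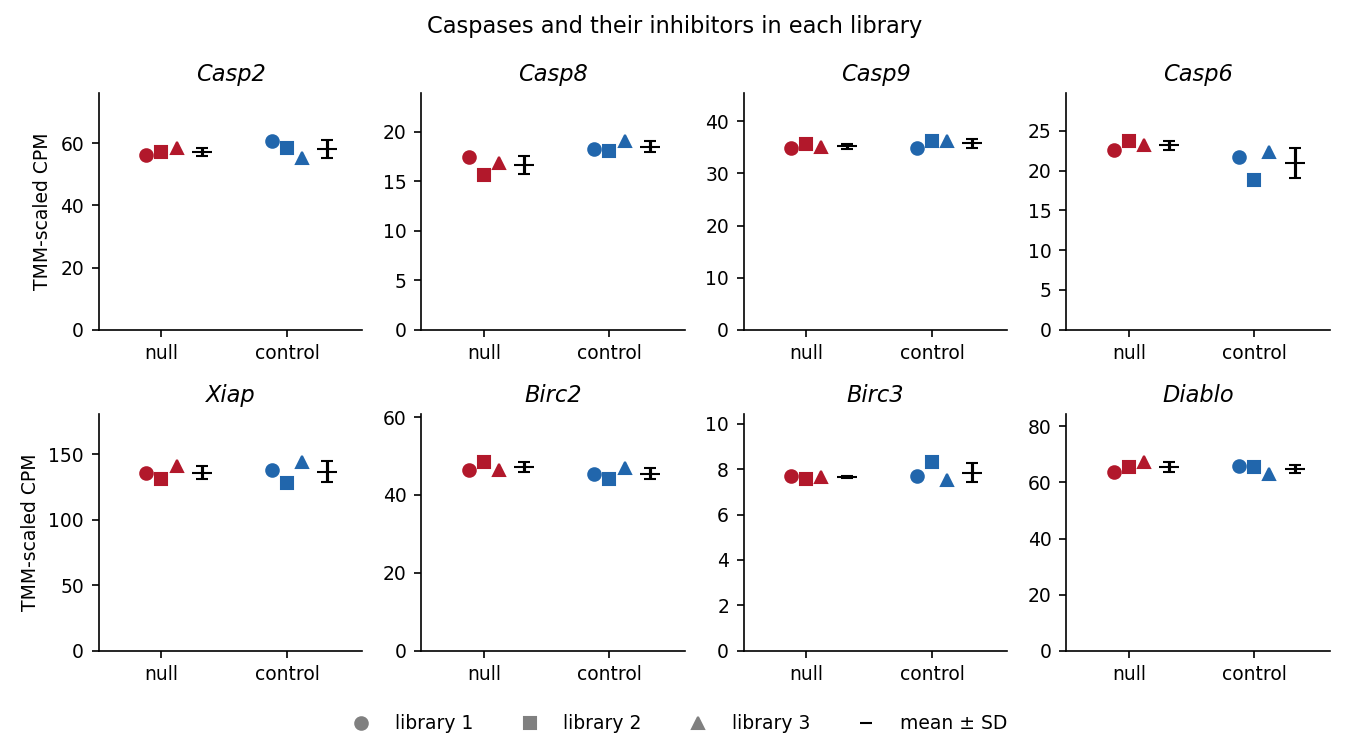
Expression of each of the 8 genes in TMM-scaled CPM (vertical axes from 0) in 3 null-labelled and 3 control libraries, with the mean and SD beside the points. The groups are apart for Casp8 (15.6 to 17.5 CPM in null-labelled libraries, 18.1 to 19.1 CPM in controls) and Casp6 (22.6 to 23.7 against 18.8 to 22.3 CPM), and overlap for the other 6 genes.

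Among the caspases that start apoptosis, Casp8 (chromosome 1, 58795374 to 58847503) stood at 17.5, 15.6 and 16.9 CPM in null-labelled libraries and at 18.3, 18.1 and 19.1 CPM in controls. All 3 null-labelled libraries were below every control, by the narrow gap between null 1 and control 2. The log2 fold change was −0.15 ± 0.07 (SE), with an unadjusted p of 0.0443 and an adjusted p of 0.231 by edgeR. Leaving out single libraries gave log2 fold changes from −0.19 to −0.11, with an adjusted p of at least 0.244 in each edgeR fit.

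Casp9 (chromosome 4, 141793612 to 141815976), the caspase of the apoptosome, had 34.9, 35.7 and 35.0 CPM in null-labelled libraries and 34.8, 36.3 and 36.2 CPM in controls. The lowest value of all was that of control 1, and the groups overlapped. Its log2 fold change was −0.02 ± 0.04 (SE, adjusted p = 0.816). Toward higher coordinates on chromosome 4, the nearest called gene was Vps13d, 3157 kb away. Casp2 (chromosome 6, 42264985 to 42282508) is activated on a platform built by PIDD1 and CRADD. It had 56.1, 57.1 and 58.5 CPM in null-labelled libraries and 60.8, 58.6 and 55.1 CPM in controls. The controls spanned the whole range of the null-labelled libraries, and the log2 fold change was −0.02 ± 0.05 (SE, adjusted p = 0.826). Neither Pidd1 nor Cradd was called, with log2 fold changes of −0.11 and 0.10.

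Casp6 (chromosome 3, 129901425 to 129914103), a caspase known for cleaving lamin A, had 22.6, 23.7 and 23.2 CPM in null-labelled libraries and 21.7, 18.8 and 22.3 CPM in controls. Null 1 lay just above control 3, and control 2 was the low library. The log2 fold change was 0.14 ± 0.07 (SE, adjusted p = 0.292), and without control 2 it was 0.07 (adjusted p = 0.615).

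Xiap (X chromosome, 42059679 to 42109656) encodes the IAP protein that blocks caspases directly. It had 136, 131 and 141 CPM in null-labelled libraries and 138, 128 and 144 CPM in controls. The range of the controls enclosed all null-labelled values, and the log2 fold change was −0.01 ± 0.05 (SE, adjusted p = 0.933). The libraries with high Xist held the lowest null-labelled value and the highest control value of this X-linked gene, and with a term for sex its adjusted p was 0.943.

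Birc2 had 46.4, 48.5 and 46.4 CPM in null-labelled libraries and 45.4, 44.0 and 46.9 CPM in controls. Control 3 lay above null 1 and null 3, so the groups overlapped (log2 fold change 0.05 ± 0.05 SE, adjusted p = 0.584). Birc3, which NF-kB induces, had 7.68, 7.59 and 7.65 CPM in null-labelled libraries and 7.70, 8.33 and 7.53 CPM in controls. Its null-labelled values fell within the range of the controls, and control 2 was the high library (log2 fold change −0.04 ± 0.09 SE, adjusted p = 0.848). Birc2 shared 1.49% of its 50-base stretches with other genes, 65 of them with Birc3, and Birc3 shared 7.56%, so reads there are uncertain.

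Diablo (chromosome 5, 123509765 to 123524176), also called Smac, had 63.7, 65.4 and 67.4 CPM in null-labelled libraries and 65.8, 65.6 and 63.0 CPM in controls. Null 3 was the highest and control 3 the lowest of 6 close values, and the log2 fold change was 0.01 ± 0.04 (SE, adjusted p = 0.887). Of its 50-base stretches 37.3% also occur in transcripts of other genes, 1231 of 2331 in the overlapping gene B3gnt4 on the opposite strand, which had at most 1 count in a library. The level of Diablo is therefore uncertain, since the strand setting of the counting is not given in the sources used here.

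**Figure D2:**
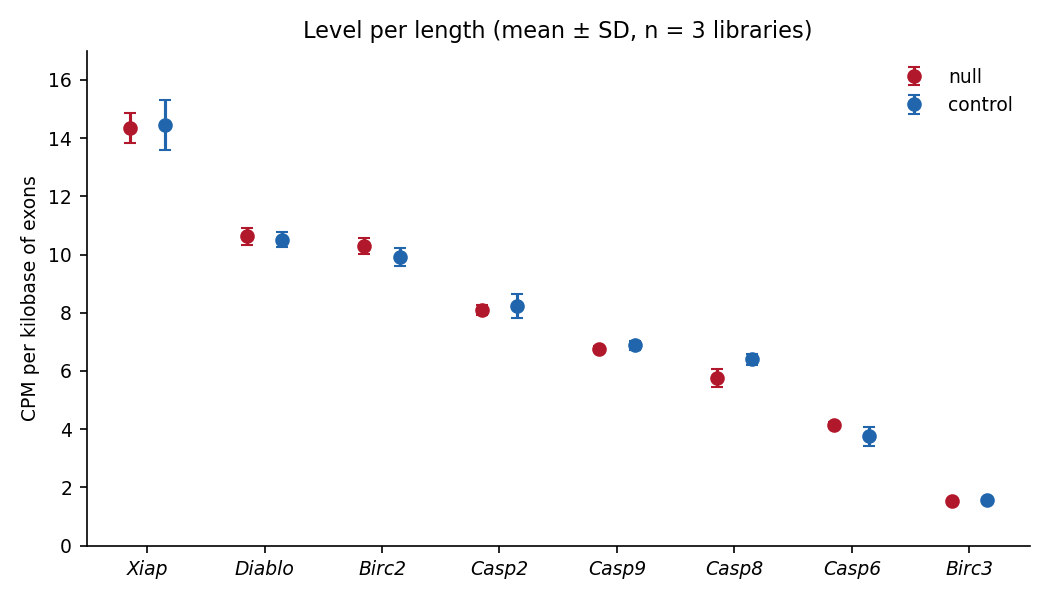
Level of each gene in CPM per kilobase of merged exons (vertical axis from 0), as mean and SD over 3 null-labelled and 3 control libraries, in falling order. Both groups give the same order from Xiap (14.3 and 14.45) to Birc3 (1.53 and 1.57), and only Diablo and Birc2 lie within each other's range.

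Per kilobase of exons, Xiap was the most abundant of the 8, with 14.3 ± 0.524 CPM per kb in null-labelled libraries and 14.45 ± 0.861 CPM per kb in controls (SD, n = 3 each). Diablo followed with 10.6 ± 0.298 and 10.5 ± 0.252 CPM per kb, then Birc2 with 10.3 ± 0.274 and 9.92 ± 0.313 CPM per kb. These neighbours overlapped in range, although Diablo was above Birc2 in 5 of 6 libraries. Casp2 had 8.11 ± 0.170 CPM per kb in null-labelled libraries and 8.24 ± 0.407 in controls, Casp9 6.77 ± 0.0783 and 6.88 ± 0.158, Casp8 5.76 ± 0.324 and 6.40 ± 0.181, and Casp6 4.15 ± 0.106 and 3.75 ± 0.335. Each of these genes was above the next in 6 of 6 libraries, with ranges apart. Birc3 was the lowest, with 1.53 ± 0.00919 CPM per kb in null-labelled libraries and 1.57 ± 0.0846 in controls. The caspases of the group thus lay below Xiap, Birc2 and Diablo and above Birc3 in level per length.

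Ratios within a library do not depend on scaling between libraries. The ratio of Casp8 to Cflar, whose product FLIP competes with caspase-8 at death receptors, was 1.18, 1.06 and 1.11 per kilobase in null-labelled libraries and 1.31, 1.33 and 1.22 in controls. Every null-labelled value was below every control (log2 difference −0.20, exact two-sided permutation p = 0.1, adjusted p = 0.3 over 3 ratios), and 0.1 is the smallest p that 3 libraries against 3 allow. The ratio of Casp9 to Xiap was 0.472 ± 0.0219 in null-labelled libraries and 0.477 ± 0.0332 in controls (SD, n = 3 each, exact permutation p = 0.8). Birc3 to Birc2 gave 0.149 ± 0.00473 and 0.158 ± 0.0135 (exact permutation p = 0.4). Cflar itself had a log2 fold change of 0.05 ± 0.05 (SE, adjusted p = 0.679). Casp8 shared 4.37% and Cflar 7.36% of their 50-base stretches with other genes, so reads there are uncertain too.

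Around the genome positions of the members, 0 of 128 other genes tested within 1 Mb were called by edgeR, against 5.41% of all genes tested. Within 2 Mb the count was 2 of 201, Aldh2 and Scarb1, both near Diablo.

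Casp8 had the smallest p of the group, and the genes most like it over the 6 libraries were Wipf1, Tube1 and Chek2, with Pearson correlations of 0.997, 0.994 and 0.993 in log2 CPM, the highest among 14814 genes compared. Their log2 fold changes were −0.15, −0.13 and −0.15, values near that of Casp8 because the genes were chosen for likeness over the same libraries.

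**Figure D3:**
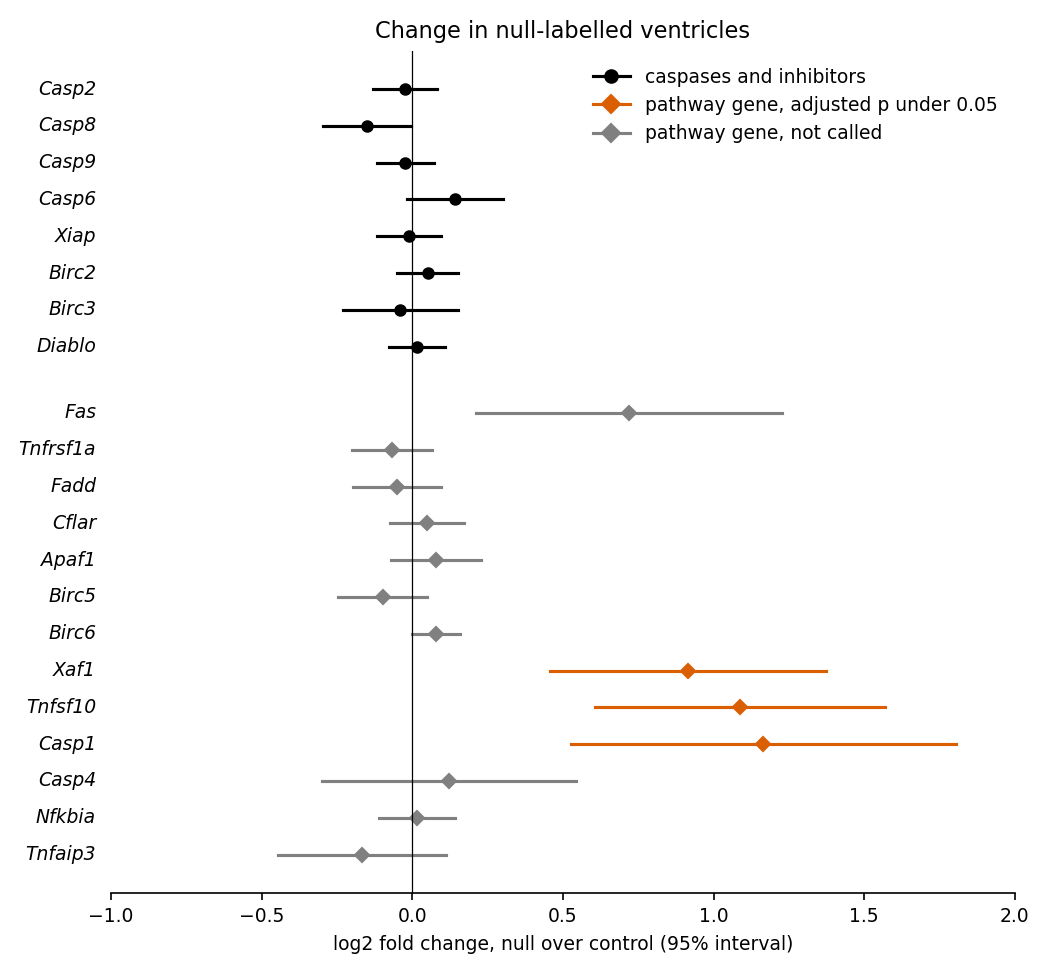
Log2 fold change of null over control with its 95% interval (horizontal axis) for the 8 caspases and inhibitors and for 13 genes that act with them. The 8 members lie between −0.15 and 0.14, while Xaf1, Tnfsf10 and Casp1, the called genes, lie between 0.92 and 1.17.

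Of 65 genes that act with the caspases, 61 passed the filter on low counts, 3 rose in null-labelled ventricles, 0 fell and 58 did not pass the test (4.92% called, against 5.41% of all genes tested). Their median log2 fold change was 0.01. At an unadjusted p under 0.05 edgeR counted 14 of the 61, or 23%, where 20.5% of all genes tested passed. Fasl, Birc7, Naip1 and Il1b were too low to be tested.

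Tnfsf10, which encodes the death receptor ligand TRAIL, had 251, 150 and 183 counts in null-labelled libraries and 121, 62 and 87 in controls. In CPM these were 6.24, 4.13 and 4.43 in null-labelled libraries and 2.75, 1.72 and 2.46 in controls, with no overlap. It was 2.13-fold higher (log2 fold change 1.09 ± 0.21 SE, adjusted p = 0.0222). Without control 2, null 1 or null 3 its adjusted p was 0.0622, 0.0664 and 0.0578.

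Xaf1, the XIAP-associated factor, known as an interferon-induced gene, had 11.2, 8.80 and 9.61 CPM in null-labelled libraries and 6.95, 4.22 and 4.42 CPM in controls. All null-labelled libraries were higher, and control 1 was the high control. Xaf1 was 1.89-fold higher (log2 fold change 0.92 ± 0.20 SE, adjusted p = 0.0408), while its partner Xiap had a log2 fold change of −0.01. The call ended without control 2, control 3 or any null-labelled library, with an adjusted p from 0.0831 to 0.116.

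Casp1, the caspase of the inflammasome that processes interleukin-1 beta, had 28, 27 and 30 counts in null-labelled libraries and 16, 8 and 13 in controls. At 0.696, 0.743 and 0.726 CPM against 0.364, 0.222 and 0.368 CPM the groups were apart, though the counts are few. It was 2.24-fold higher (log2 fold change 1.17 ± 0.29 SE, adjusted p = 0.0467). The call was lost without each single library (adjusted p from 0.0602 to 0.142), with DESeq2 (adjusted p = 0.128), with a sex term (adjusted p = 0.0668) and with a replicate block (adjusted p = 0.0956).

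Interferon-induced genes and markers of several cell types differed between the same libraries. The counts below stand beside 2.43% of all genes tested that edgeR called higher and 2.98% that it called lower. Of 8 interferon-induced genes 8 rose, and their summed level was 73.5 to 134 CPM in null-labelled libraries and 14.6 to 22.8 CPM in controls. This list, like the others here, was chosen with earlier results of these data known, so its count is a description and not a test. Of 8 macrophage markers 5 rose, with sums of 97.1 to 121 CPM in null-labelled libraries and 76.1 to 87.2 CPM in controls, and 0 of the 8 were at 0. Of 8 lymphocyte markers, 1 was high enough to test, and their sums were 0.721 to 0.993 and 0.472 to 0.792 CPM. Endothelial markers, of which 4 of 7 fell, summed to 1231 to 1323 CPM in null-labelled libraries and 1378 to 1536 CPM in controls. Of 6 fibroblast markers 3 rose, with sums of 6850 to 7639 CPM in null-labelled libraries and 5546 to 6504 CPM in controls. Of 5 epicardial markers 2 fell, with sums of 108 to 126 CPM in null-labelled libraries and 121 to 160 CPM in controls. In the lists for mural cells, cardiomyocytes and lymphatic endothelium 1 tested gene each fell, of 6, 7 and 4. These were Cspg4 (log2 fold change −0.21), Actc1 (−0.18) and Mmrn1 (−2.38, adjusted p = 0.0211 by edgeR). Mmrn1 had 103, 49 and 75 counts in null-labelled libraries and 283, 355 and 486 in controls. The other tested lymphatic genes, Lyve1, Flt4 and Pdpn, had log2 fold changes of −0.11, −0.05 and −0.05 and were not called. Of the tested erythroid, neutrophil and liver markers edgeR called 0 of 6, 0 of 3 and 0 of 3. At an unadjusted p under 0.05 it counted 2, 0 and 1, where 20.5% of all genes tested passed. The 6 tested erythroid genes all lay below 0, with a median log2 fold change of −0.94. Erythroid sums were 1207 to 1967 CPM in null-labelled libraries and 1746 to 5074 CPM in controls, overlapping in range. The part of these cell types in the rise of Tnfsf10, Xaf1 and Casp1 was not tested.

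**Figure D4:**
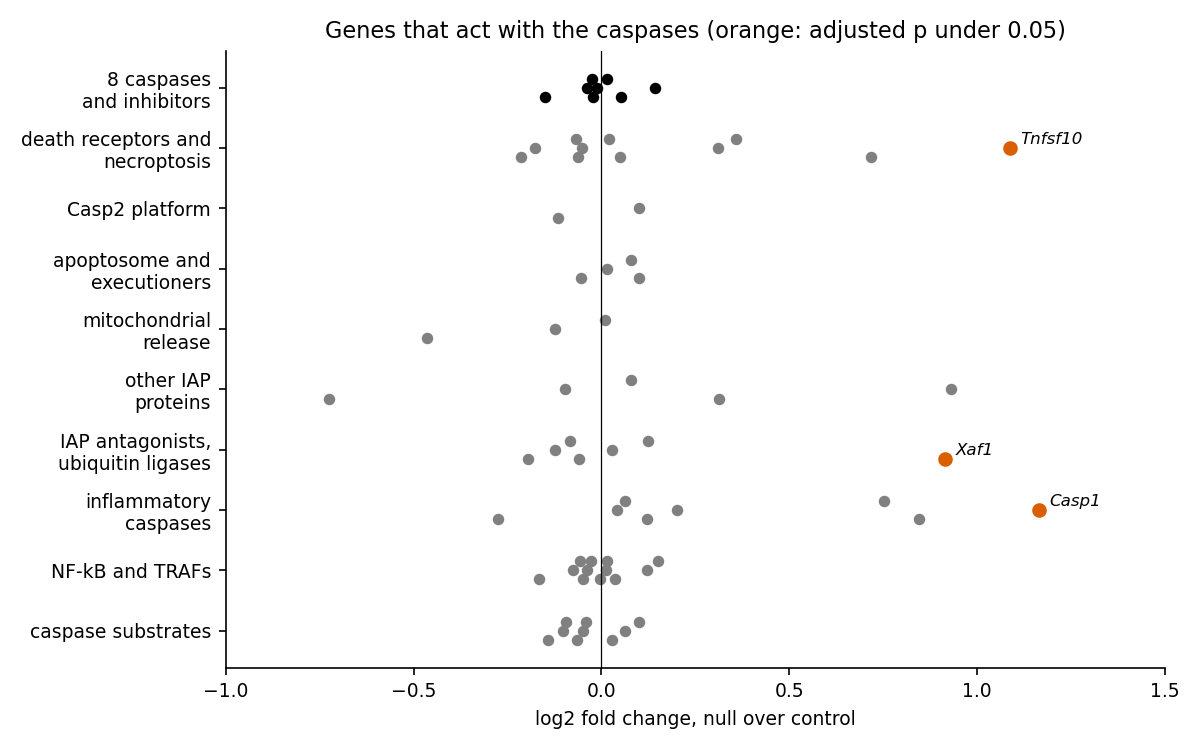
Log2 fold change of null over control (horizontal axis) for each tested gene, by functional group (rows), with vertical offsets for legibility only. The 3 called genes are Tnfsf10 (1.09), Xaf1 (0.92) and Casp1 (1.17), and the 12 NF-kB and TRAF genes lie between −0.17 and 0.15.

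In the death receptor group 1 of 11 tested genes rose, Tnfsf10, and among IAP antagonists and ubiquitin ligases 1 of 7, Xaf1. Over all genes tested edgeR called 2.43% higher, and in groups this small 1 gene does not set a group apart from that share. The receptor gene Fas had 1.72, 1.98 and 2.18 CPM in null-labelled libraries and 1.00, 1.00 and 1.58 CPM in controls, apart in range (log2 fold change 0.72 ± 0.23 SE, adjusted p = 0.104), and it was called without control 3 (adjusted p = 0.0341). The TRAIL receptor gene Tnfrsf10b had a log2 fold change of 0.31 ± 0.09 (SE, adjusted p = 0.0876). The adaptor Fadd and the tumour necrosis factor receptor gene Tnfrsf1a had log2 fold changes of −0.05 and −0.07 (adjusted p = 0.73 and 0.579).

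Apaf1, the scaffold of the apoptosome, had 50.3 ± 2.65 CPM in null-labelled libraries and 47.6 ± 4.12 CPM in controls (SD, n = 3 each), with a log2 fold change of 0.08 (adjusted p = 0.566). Among genes of 3 mitochondrial proteins released in apoptosis, edgeR called 0. At an unadjusted p under 0.05 it counted 2, where 20.5% of all genes tested passed. These were Htra2 (log2 fold change −0.12, adjusted p = 0.136) and Endog (−0.46, adjusted p = 0.132).

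Of 5 tested genes among the other IAP proteins edgeR called 0. At an unadjusted p under 0.05 it counted 1 (20%, against 20.5% of all genes tested). This was Naip2 (log2 fold change 0.93, adjusted p = 0.201), with 43, 23 and 33 counts in null-labelled libraries and 13, 26 and 11 in controls. Its copies Naip5 and Naip6, with fewer counts in all, had log2 fold changes of 0.31 and −0.72 (adjusted p = 0.675 and 0.29). The Naip copies can share reads, which was not measured here. Birc6, a giant ubiquitin ligase that restrains caspases, had 256 ± 3.76 CPM in null-labelled libraries and 243 ± 5.12 CPM in controls (SD, n = 3 each, log2 fold change 0.08, adjusted p = 0.259). Birc5, the mitotic protein survivin, gave −0.10 on that scale (adjusted p = 0.452).

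Of 12 NF-kB and TRAF genes edgeR called 0, where 5.41% of all genes tested were called. At an unadjusted p under 0.05 it also counted 0, against 20.5% of all genes tested. The NF-kB targets Nfkbia and Tnfaip3 had log2 fold changes of 0.02 and −0.17 (adjusted p = 0.911 and 0.508), beside −0.04 for Birc3. Of 9 caspase substrates edgeR called 0. At an unadjusted p under 0.05 it counted 2 (22.2%, against 20.5% of all genes tested), Rock1 (log2 fold change 0.10) and Acin1 (−0.10). Of 8 inflammatory caspase and inflammasome genes 1 rose, Casp1 (12.5%, against 2.43% of all genes tested called higher). Casp4, which senses lipopolysaccharide, had a log2 fold change of 0.12 ± 0.19 (SE, adjusted p = 0.777). DESeq2 called 2 of the 61 pathway genes, Tnfsf10 and Xaf1, and limma-voom 3.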

How the data were processed

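Libraries of heart ventricle, 3 null-labelled and 3 control, were represented by the whole-number counts per gene that the authors deposited, 1 file per library, not normalised. The submitters' processing notes name build mm10 and the tools HTSeq 0.6.1p1, STAR, DESeq2 and cutadapt 1.13. Which tool did what, the annotation release and the strand setting were not stated in the sources read. Of 25006 gene identifiers 24991 were matched to GENCODE M21 on the same build.

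Genes were filtered with filterByExpr by group, scaled by TMM and tested in edgeR 4.0.16 (R 4.3.3) with its robust quasi-likelihood test, two-sided, with group as the term, with Benjamini-Hochberg adjustment over all genes tested and a threshold of 0.05; adjusted p-values are from it where no other tool is named. Standard errors were derived from each gene's F statistic and fold change. DESeq2 1.42.0, limma-voom (limma 3.58.1), other scalings and filters, omission of libraries, a replicate block and a sex term were alternatives. At these depths 3 counts equal 0.0677 to 0.0852 CPM, and p-values cover these libraries only. Septin4 was matched as Sept4.

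The members and lists were chosen with earlier results of these data known. Named genes are the members, a list of 14 pathway genes, some of which are not reported here, every pathway gene called, Prox1, Esr1 and the 3 genes most like the member of smallest p; other names were chosen after their values were seen. A check for libraries deposited more than once found no pair within a group that agreed within sampling noise (chi-square per degree of freedom at least 9.18), so all 6 were counted.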

Additional observations from a re-analysis of the deposited data

How the results depend on the processing

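Under the 16 alternatives 0 of the 8 caspases and inhibitors were called, by edgeR, DESeq2 or limma-voom, and the lowest adjusted p was 0.177, for Casp6 without control 3. Of 128 member values 6 changed sign, each near 0. The alternative with a threshold of 0.1 kept the values of the main fit, so those could not change sign. With 1 library left out, log2 fold changes ran from −0.0619 to 0.0106 for Casp2, −0.0570 to 0.0292 for Xiap, −0.0683 to 0.00275 for Birc3, −0.00597 to 0.0346 for Diablo, −0.105 to 0.00959 for Fadd, −0.0116 to 0.241 for Casp4 and −0.0249 to 0.0522 for Nfkbia, and the log2 difference of Casp9 to Xiap from −0.0497 to 0.0431. Without null 1 and null 3, Birc5 was at 0.00200, Casp4 at −0.0481 and Nfkbia at −0.00191. The number of genes changed was 801; it was 258 to 942 with 1 library left out, 52 without null 1 and null 3, and 1430 at a threshold of 0.1. The number of pathway genes changed was 3. It was 0 to 2 with 1 library left out (0 on omitting control 2, null 1 or null 3) and 5 at a threshold of 0.1. The causes were not tested. Same-numbered null and control libraries did not deviate together (correlations −0.0643, −0.0467 and −0.121), and no library correlated best with its own number; the replicate block called 570 genes, 0 members and 2 pathway genes. Changed genes split into 368 higher and 400 lower with median-ratio scaling and 394 and 394 with upper-quartile scaling, against 360 and 441.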

Other observations

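The lung gene Sftpc, which encodes a surfactant protein, had 140 counts in null 2, 4 in null 1 and 10 in null 3, against 0, 4 and 2 in controls. The liver gene Alb, which encodes serum albumin, had 57, 20 and 125 counts in null-labelled libraries, against 3, 12 and 322 in controls. Afp, which encodes alpha-fetoprotein, had 18, 15 and 41 against 1, 5 and 131, and Apoa1 10, 13 and 8 against 5, 6 and 28. Ttr, also on the liver list, was not raised in control 3. It had 28, 26 and 14 counts in null-labelled libraries and 12, 11 and 11 in controls (log2 fold change 0.97, adjusted p = 0.162 by edgeR). Without null 2 edgeR called 0 of the 8 members and 258 of 15017 genes tested, and without control 3 it called 0 members and 942 of 15025 genes. Leaving out null 1 or null 3 also lowered the number of genes called, to 385 and 277. Without control 1 or control 2 it was 574 and 402.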
